A study of Mus musculus with 4 samples.

Results

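The comparison set 2 tumor libraries reached by virus against 2 that were not, and it used 4 of the 4 libraries of the series, chosen by sample title. The virus-reached pair was the MV left tumor library, from left-flank tumors injected with free MV in mice given TRP-1 T cells intravenously, and the TRP-1MV library, from mice given TRP-1 T cells that carried MV by vein. The virus-free pair was the remote tumor library, from the uninjected right-flank tumors of the MV-injected, T cell-treated group, and the CTX library, whose label gives PBS injection of left tumors and no T cells. All 4 groups were B6 mice with B16 melanoma cells placed under the skin, all received CTX into the peritoneum 1 day before ACT (a step the labels leave unexpanded), treatments started on day 7, and the tissue was collected 12 days after ACT. MV is written MYXV in the table headers, the usual abbreviation of myxoma virus. A group given T cells without virus was not analysed here.

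Each group had 1 library, although n = 2 is stated in the labels, with no word on pooling of mice, so the libraries of a pair are different treatments and not replicates. Exact permutation of 2 against 2 libraries cannot go below a two-sided p of 0.333, and no p-value is given. A difference is instead set against the spread inside each pair. Virus as labelled, transcripts of T cells and other leukocytes, and signs of library preparation all followed the same pairs, so their parts in any difference cannot be told apart. No viral transcript was examined, so virus in a tumor is known here from the labels only. Likewise, in bulk tissue fewer cells of a type and less RNA per cell cannot be told apart.

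B16 is a transplantable pigmented melanoma line. Its cells carry the melanosome program driven by MITF and SOX10, and TRP-1, encoded by Tyrp1, is one of the melanin-forming enzymes and the antigen named in the T cell label. Myxoma virus is a rabbit poxvirus used as an oncolytic agent. T cells that meet antigen secrete interferon gamma and cytotoxic granules, and myeloid cells drawn by chemokines take up debris and present antigen on MHC class II.

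Values below are CPM after TMM scaling, given in the order MV left tumor, TRP-1MV, remote tumor, CTX. Library totals ran from 12375526 to 14802809 counts in the virus-reached pair and from 20811605 to 21790759 in the virus-free pair. Despite the lower totals, 17232 and 17436 genes had a read in the virus-reached pair, against 15951 and 15907. A count of 0 allows up to 0.222, 0.186, 0.151 and 0.156 CPM, counting error only. The 7 melanocyte markers (Tyr, Tyrp1, Dct, Pmel, Mlana, Mitf, Sox10) were detected in all 4 libraries, with summed levels of 5740, 5380, 25100 and 24700 CPM. The tissue label reads skin, yet the 4 keratinocyte markers (Krt5, Krt14, Krt1, Krt10) summed to 0.592, 0.993, 0.100 and 0 CPM.

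The pairs were internally close and far from each other. Over genes with a mean of at least 10 reads, 13357 in all, the median absolute log2 ratio was 0.106 within the virus-reached pair and 0.100 within the virus-free pair. Between the pairs it was 0.607 to 0.631 in the 4 ratios. A 2-fold difference was reached by 1.32% of genes within the virus-reached pair, by 2.08% within the virus-free pair and by 29.8% to 31.3% between pairs. Among the 4586 genes with a mean of at least 1000 reads, where counting error is small, 0 genes differed 2-fold within the virus-reached pair, 6 within the virus-free pair and 794 to 886 between pairs. Within-pair agreement was still looser than counting error, with a chi-square per gene of 5.26 and 4.56.

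**Figure D1:**
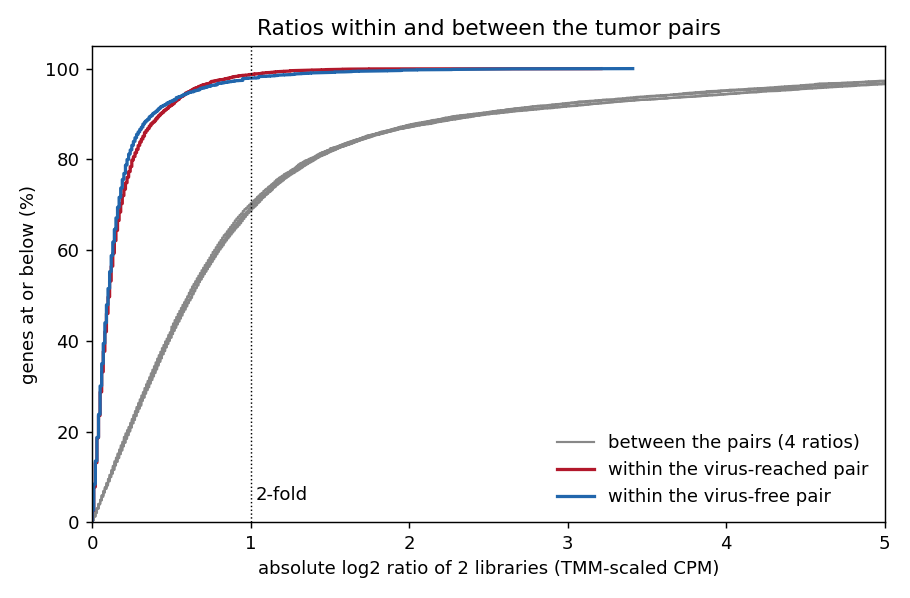
Cumulative share of genes (vertical axis, percent) by absolute log2 ratio of 2 libraries (horizontal axis, TMM-scaled CPM). The curves within each pair rise steeply, with 1.32% and 2.08% of genes beyond 2-fold, while the 4 between-pair curves lie on each other with 29.8% to 31.3% beyond it.

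All 4 cross-pair ratios lay on the same side for most genes: 5603 were higher in the virus-reached pair, 41.9% of the genes compared, and 6241 were lower, 46.7%. A gene was called where all 4 ratios were at least 2 the same way and each 95% exact conditional binomial interval excluded equality. This gave 2139 higher genes, 16.0%, and 1179 lower genes, 8.83%. The ratio nearest equality also exceeded the larger within-pair difference for 2119 of the higher genes, 15.9% of those compared, and for 1170 of the lower genes, 8.76%. However, 327 higher genes had 3 reads or fewer in both virus-free libraries, so no virus-free spread was computed for them. They were set against the virus-reached pair only. Likewise a spread within the virus-reached pair existed for 1170 of the 1179 lower genes. Higher genes made up 64.5% of all 2-fold calls, a share that was 79.7% with total counts and 89.8% when scaled on housekeeping genes. Those scalings raised the median of all genes by 0.25 and 0.51 on the log2 scale.

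The sides of the comparison were unlike in shape. Higher genes reached far: 1278 were at least 4-fold, 522 at least 16-fold and 92 at least 64-fold higher in all 4 ratios. Lower genes were mostly shallow, with 153 at least 4-fold and 3 at least 16-fold lower. A gene near 0 in one pair passed the minimum of 10 reads only through the other pair, where it had to be high. They were also abundant: they held 20.7% of virus-free reads and 8.72% of virus-reached reads, while higher genes held 1.83% and 10.7%. Of the genes with a mean of 10 to 100 reads 38.8% were higher and 6.65% lower, and of the 167 with a mean of at least 10000 reads 2 were higher and 41 lower.

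The 15 genes furthest above equality, ranked by the interval limit nearest to it, were leukocyte genes for the greater part. Ccl22, a chemokine of mature dendritic cells that attracts CCR4-bearing T cells (mm10 chromosome 8, 94745590 to 94751699), was at 492 and 808 CPM against 0.251 and 0.417. Every virus-reached value exceeded every virus-free value by at least 1180-fold. Ccl17, the other CCR4 ligand and its neighbour on chromosome 8, was at 46.7 and 69.6 CPM against 0 in both virus-free libraries, at least 298-fold higher in each ratio with 0 set to 3 reads. Il2ra, the high-affinity interleukin 2 receptor chain of activated and regulatory T cells, was at 415 and 418 CPM against 0.352 and 0.730. Tnfrsf8, the activation receptor CD30, was at 62.8 and 61.7 CPM against 0.0502 and 0.104. That the pairs do not overlap in these genes follows from the calling rule.

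The rest of that group joined granulocyte and macrophage genes to lymphocyte genes. Mmp8, a neutrophil collagenase, was at 143 and 229 CPM against 0.0502 and 0.0521, which were 1 read in each virus-free library. Its ratio nearest equality was 11.42 on the log2 scale, and the interval limit nearest equality was 8.94. Lcn2 (iron-sequestering lipocalin), Chil1 (chitinase-like protein), Mmp12 (macrophage elastase), Il1a and Cxcl3 (inflammatory cytokine and neutrophil chemokine), Ccr7 (homing receptor of mature dendritic and naive T cells) and Slc7a2 (arginine transporter) had mean log2 differences of 8.82, 7.43, 7.51, 9.35, 8.44, 8.61 and 8.26. In each of these genes the TRP-1MV library was above the MV left tumor library. The lymphocyte genes were level: Gzmb (granzyme B) was at 205 and 217 CPM against 1.26 and 1.41, Irf4 at 90.1 and 90.3 against 0.151 and 0.521, and Pou2af1, a B cell coactivator, at 35.8 and 33.6 against 0 in both.

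The 15 genes furthest below equality contained genes of pigment cells, neural lineage and cell shape. Gsdmc, a pore-forming gasdermin of epithelial and melanoma cells (chromosome 15, 63775968 to 63808759), was at 17.0 and 17.9 CPM against 331 and 325, a mean log2 difference of -4.23. Aldh1a3, a retinoic acid-forming dehydrogenase, was at 1.04 and 1.37 CPM against 24.8 and 23.9. Fam178b was at 0.666 and 0.683 CPM against 14.2 in the remote tumor, a mean log2 difference of -4.44. These were the 3 genes at least 16-fold lower in all 4 ratios. Mlph, the melanophilin that links melanosomes to the motor on actin, was at 106 and 98.3 CPM against 684 and 668.

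Further lower genes in that group were Mest (an imprinted gene), Nes (the progenitor filament nestin), Tubb3 (neuronal beta-tubulin), Tenm4 (a teneurin adhesion protein), Eef2k (the kinase that slows translation elongation), Prickle1 (planar polarity), Insc (spindle orientation), Kank4, Clvs1, Slc35f1 and Cpne4. Their mean log2 differences were -3.01, -2.94, -2.74, -3.09, -2.81, -2.68, -2.74, -3.94, -4.37, -3.22 and -3.0. Clvs1 was the least even of them, at 1.04 and 2.30 CPM inside the virus-reached pair. Cpne4 was the most even, at 3.48 and 3.48 against 27.8 and 27.7.

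**Figure D2:**
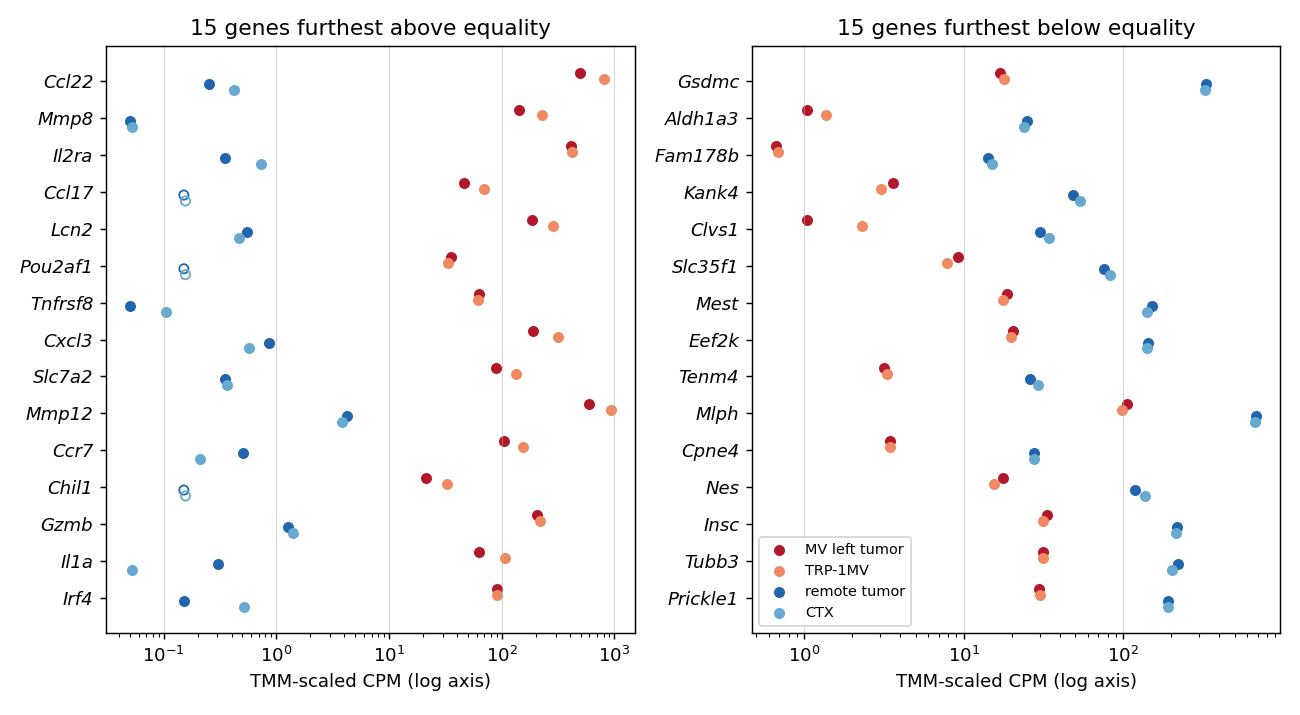
TMM-scaled CPM (log axis) of the 15 genes furthest above and the 15 furthest below equality, 1 point per library, with open circles at the level that 0 reads allows. The virus-reached points stand apart from the virus-free points in each row, as the calling rule requires. In Ccl22, Mmp8, Lcn2 and Cxcl3 the TRP-1MV point lies to the right of the MV left tumor point.

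Among abundant genes the 5 steadiest higher ones, judged against the spread inside the pairs, were Jun, Atf3, Pnrc1, Ccn1 and Gzmb. Jun, the AP-1 subunit, was at 612 and 624 CPM against 70.5 and 70.4, a mean log2 difference of 3.13. Atf3, a stress-induced partner of Jun, was at 173 and 168 CPM against 22.4 and 21.5. Ccn1, a matrix protein of the immediate early class, was at 668 and 656 CPM against 45.8 and 42.8, and Pnrc1, a nuclear receptor coregulator, at 267 and 264 against 64.0 and 65.6. None of these 4 genes differed by more than 0.10 on the log2 scale within a pair, and Gzmb differed by at most 0.16. On the lower side Gsdmc, Eef2k, Prickle1, Adam12 (a metalloprotease, 32.5 and 32.0 CPM against 160 and 164) and Telo2 (a chaperone of kinases of the DNA damage response, 25.2 and 24.7 CPM against 121 and 124) were the steadiest.

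Promoter windows of 4 genes, taken from the named genes that hold a motif match, are shown as examples. They are Tyr for the pigment program, Cxcl3 and Ccl17 for the chemokines and Gzmb for the cytotoxic genes. Whether the motifs shown are typical of either side was not tested. Each holds the 120 bases before the RefSeq start (GRCm38.p6, the build of mm10), 5′ to 3′ on the gene's strand, with the motif match in capitals.
Tyr (chr7:87493513-87493632, minus strand): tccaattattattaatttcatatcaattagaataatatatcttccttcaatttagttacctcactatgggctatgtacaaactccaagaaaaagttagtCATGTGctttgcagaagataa
Cxcl3 (chr5:90785981-90786100, plus strand): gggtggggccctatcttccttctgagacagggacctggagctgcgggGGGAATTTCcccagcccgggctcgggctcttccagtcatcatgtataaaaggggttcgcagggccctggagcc
Ccl17 (chr8:94810333-94810452, plus strand): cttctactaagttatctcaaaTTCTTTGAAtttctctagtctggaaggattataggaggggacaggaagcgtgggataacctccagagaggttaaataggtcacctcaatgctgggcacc
Gzmb (chr14:56262335-56262454, minus strand): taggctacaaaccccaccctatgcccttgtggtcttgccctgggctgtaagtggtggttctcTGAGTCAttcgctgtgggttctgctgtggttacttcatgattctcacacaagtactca
The capitals mark the MITF M-box core CATGTG in Tyr, an NF-kB site GGGANTTTC in Cxcl3, a STAT site TTCNNNGAA in Ccl17 and an AP-1 site TGACTCA, present as its other strand TGAGTCA, in Gzmb. They begin 21, 73, 99 and 58 bases before the start. Among all 32851 RefSeq promoters of 300 bases, searched on both strands, 14.2%, 1.11%, 8.30% and 5.20% hold these motifs. Promoters of Ccl22, Il2ra, Mmp8, Jun and Mitf hold none of them. Il1a and a promoter of Mmp12, genes of the higher side, hold the M-box core. A promoter was matched for 76.6% of higher and 77.3% of lower genes, so a comparison of motif shares between the sets was void.

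T cell transcripts were higher for the greater part. All 16 compared genes of the T cell receptor complex were higher, with a median log2 difference of 6.57 beside -0.05 over all genes. Cd28, the costimulatory receptor, was at 47.1 and 46.7 CPM against 0.251 and 0.261, and Themis, a developmental signalling protein of T cells, at 39.7 and 40.5 against 0.201 and 0.209. The smallest difference of the list was that of the kinase Lck, 3.06. Inside the virus-reached pair the list median was 0.01. Of the helper and regulatory genes 11 of 13 were higher with a median of 4.31: Cd4 was at 21.8 and 23.2 CPM against 0.502 and 0.469, whereas Foxp3, the regulatory T cell factor, was at 2.89 and 2.48 against 0.452 and 0.469.

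Cytotoxic and checkpoint genes followed. All 14 cytotoxic effector genes were higher, median 5.01. Ifng, the interferon gamma gene, was at 39.3 and 38.8 CPM against 0.151 and 0.104, and the perforin gene Prf1 at 8.14 and 8.82 against 0.603 and 0.261. Of 12 checkpoint genes 11 were higher, median 4.01, with Pdcd1 (PD-1) at 4.29 and 3.97 CPM against 0.201 and 0.104. Havcr2 (TIM-3) was the exception, at 3.11 and 4.35 CPM against 3.06 and 4.07, and its pairs overlapped. The 5 T cell markers summed to 101, 102, 1.46 and 1.67 CPM, although the mice of the remote tumors had also received T cells.

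B cell genes were higher throughout, 11 of 11, with a median of 5.63 and a range of 4.16 to 7.82. Ms4a1 (CD20) was at 13.8 and 12.9 CPM against 0.0502 and 0. Plasma cell genes split: Irf4, Prdm1, Mzb1, Derl3 and the joining chain Jchain were higher, while Xbp1 at 160 and 160 CPM against 180 and 168, and Sdc1, mean log2 difference 0.19, were not. Both are also expressed outside plasma cells. Of 3 compared NK cell genes 3 were higher (median 3.07), and of 6 killer lectin-like receptors 5 (median 2.65). These groups hold 10 and 34 genes, and the others fell below the minimum count, which favours genes that are high in 1 pair. The 4 NK cell markers (Ncr1, Klrb1c, Eomes, Klra8), of which 1 was compared, summed to only 4.81, 4.53, 1.96 and 1.88 CPM.

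Myeloid lists were as high between pairs but uneven within the virus-reached pair. Neutrophil genes were higher in 10 of 10 compared (median 6.22), dendritic cell genes in 9 of 10 (5.04) and macrophage and monocyte genes in 13 of 17 (3.89). These lists hold 15, 15 and 18 genes, and the others fell below the minimum count. The 5 neutrophil markers (S100a8, S100a9, Csf3r, Ly6g, Cxcr2), of which 3 were compared, summed to only 14.1, 21.0, 1.36 and 0.730 CPM. Arg1, the arginase of suppressive macrophages, was at 108 and 167 CPM against 2.01 and 1.41, and the scavenger receptor gene Marco at 20.1 and 29.5 against 0.151 and 0.0521. Adgre1, which encodes F4/80, was at 114 and 174 CPM against 3.77 and 1.77. The TRP-1MV values were the highest in each of the 3 genes.

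Some members of the macrophage list differed little, and the 3 given here were chosen after their values were seen. C1qa was at 13.5 and 17.0 CPM against 12.3 and 11.7, C1qb at 31.2 and 35.6 against 17.4 and 12.3, and the mannose receptor gene Mrc1 at 5.77 and 6.71 against 3.42 and 4.02. All 3 lay the same way in all 4 ratios and none was called. The list median inside the virus-reached pair, MV left tumor over TRP-1MV, was -0.49 for macrophage genes, -0.57 for dendritic cell genes and -0.59 for neutrophil genes, against 0.01 for the T cell receptor complex, 0.02 for cytotoxic genes, 0.03 for helper and regulatory genes and -0.02 for B cell genes. The checkpoint list (-0.36) and plasma cell genes (-0.26) lay between these.

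Over all higher genes the within-pair median was -0.12, and 65.2% lay below 0. Of the 2139, 20.8% were lower in the MV left tumor than in TRP-1MV by at least 0.5 on the log2 scale and 2.24% were higher by as much. Among the genes not called the shares were 2.67% and 2.50%. Leukocyte immunoglobulin-like and paired receptors (17 of 18 higher, median 4.38, within-pair median -0.63), C-type lectin receptors (11 of 14, 3.56, -0.57), Toll-like receptors (7 of 10, 4.09, -0.56) and MHC class II genes (13 of 14, 3.07, -0.50) shared the offset.

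**Figure D3:**
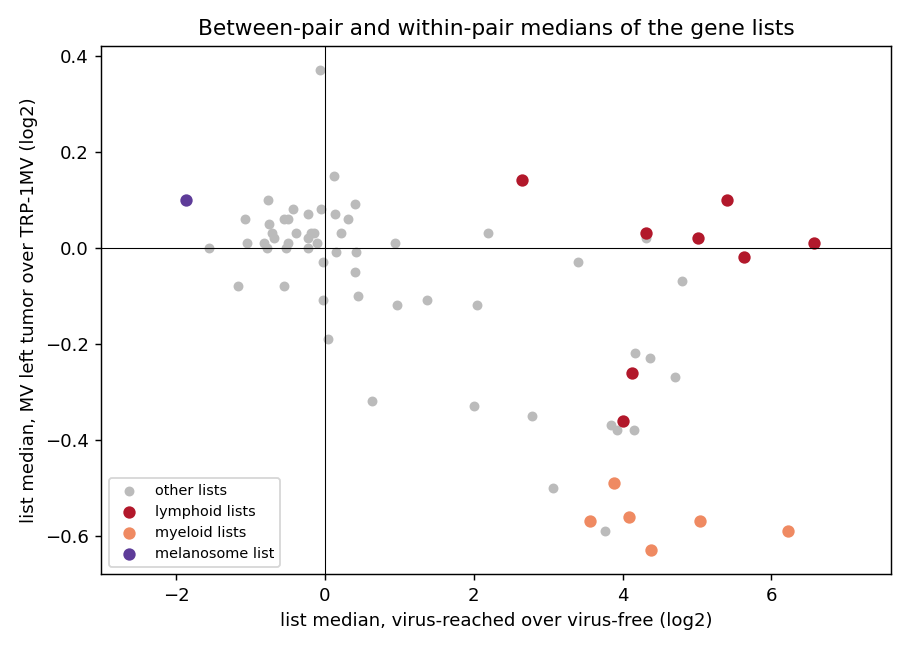
Each point is a gene list or family of at least 5 compared genes, placed by its median log2 difference between the pairs (horizontal) and inside the virus-reached pair, MV left tumor over TRP-1MV (vertical). The 8 lymphoid lists run from -0.36 (checkpoint genes) to 0.14 (killer lectin-like receptors) on the vertical axis and the 6 myeloid lists from -0.63 to -0.49.

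Soluble signals and their receptors were mostly higher. Of 21 chemokines 16 were higher, median 3.76, and of 14 chemokine receptors 12, median 4.16. Ccl5, which recruits T cells and monocytes, was at 243 and 387 CPM against 5.43 and 4.22. The interferon-inducible CXCR3 ligands were low by comparison: Cxcl10 was at 98.7 and 91.1 CPM against 34.5 and 36.6, and Cxcl9 at 7.40 and 6.77 against 7.94 and 8.19. Interleukin and colony-stimulating factor genes were higher in 18 of 22 (median 4.80) and their receptors in 21 of 26 (4.37). Il6 was at 8.51 and 13.5 CPM against 0.0502 and 0.104, while Csf1, the macrophage growth factor, was at 81.6 and 81.6 against 40.0 and 41.4 and just missed the 2-fold rule. Tumor necrosis factor ligands were higher in 7 of 8 (median 4.17) and their receptors in 14 of 19 (4.31).

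Interferon-stimulated genes stood apart from this pattern. Of 26 type I interferon-stimulated genes 6 were higher and 0 lower; 10 lay higher in all 4 ratios and 10 lower. Over all genes compared 16.0% were higher and 8.83% lower. The median of the list was 0.05, and it was -0.04 without the TRP-1MV library and -0.05 without the remote tumor library. Total counts and the housekeeping scale, which raised the median of all genes by 0.25 and 0.51, raise this median by as much. Irf7, Mx1 and Oas3 were higher: Irf7, the interferon regulatory factor of plasmacytoid dendritic cells and other leukocytes, was at 42.0 and 62.7 CPM against 4.07 and 5.42. The antiviral genes Ifit2 (33.6 and 32.7 CPM against 56.8 and 62.7), Rsad2 (34.3 and 37.3 against 58.7 and 62.2) and Bst2 (61.9 and 69.4 against 119 and 116) lay lower in all 4 ratios without meeting the rule.

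Interferon gamma response genes gave 8 higher and 1 lower of 19, median 0.94. Nos2, the inducible nitric oxide synthase, was at 46.6 and 77.4 CPM against 1.11 and 0.365, and the adhesion gene Icam1 at 62.1 and 80.2 against 4.97 and 2.03. Irf1 was at 89.5 and 81.0 CPM against 53.8 and 52.5 and was not called, and Wars, a tryptophan tRNA synthetase that interferon induces, was the lower member at a mean of -1.18. On the housekeeping scale 14 were higher and 0 lower (median 1.45), and with total counts 10 and 0. Guanylate-binding proteins were higher in 4 of 11 (median 0.97), or 9 on the housekeeping scale. MHC class I presentation genes were higher in 12 of 17 (median 1.38), with H2-K1 at 389 and 494 CPM against 96.6 and 89.2, and the light chain B2m at 1180 and 1460 against 795 and 753. Class I genes share sequence, so reads can be split between them. NF-kB subunits and inhibitors were higher in 10 of 16 (median 2.04), and inflammasome and gasdermin genes in 9 of 13 (median 3.84), with Gsdmc as the 1 lower member.

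p53 targets were among the higher lists outside leukocyte biology, with 10 of 13 higher, 0 lower and a median of 2.19, and 11 higher on the housekeeping scale. The cell cycle inhibitor gene Cdkn1a (p21) was at 929 and 938 CPM against 290 and 287. Mdm2, whose product degrades p53, was at 376 and 373 CPM against 77.2 and 84.3, and Bbc3 (PUMA), a killer of the BCL-2 family, at 135 and 144 against 14.9 and 14.5. These 3 genes differed by at most 0.13 on the log2 scale within either pair. Pmaip1 (NOXA) was at 12.8 and 14.9 CPM against 0.0502 and 0.156. Bax, at 154 and 151 CPM against 163 and 151, and Sesn1, at 17.8 and 16.2 against 22.7 and 23.5, were not higher. Fas, also a lymphocyte gene, was at 7.92 and 12.5 CPM against 0 and 0.0521.

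The remaining death and stress lists were mixed. Apoptosis regulators were higher in 7 of 16 (median 0.41), 3 of them Bcl2a1 paralogs of leukocytes, whose reads can be shared. Autophagy genes were higher in 3 of 22 (median 0.15), or 8 on the housekeeping scale. In the unfolded protein and ATF4 list 3 were higher and 4 lower, median -0.10, with a sign that turned to 0.15 when scaled by total counts and to 0.41 by housekeeping genes. Its amino acid stress members Asns (126 and 121 CPM against 563 and 526), Trib3 (33.7 and 35.3 against 155 and 143) and Chac1 (24.7 and 22.9 against 106 and 96.2) were lower, and Atf3 and Ppp1r15a (137 and 140 against 44.6 and 40.5) were higher. Aminoacyl-tRNA synthetases had 4 lower of 19 (median -0.81), among them Gars at 390 and 383 CPM against 1070 and 1060; none of the 19 was called on the housekeeping scale.

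Pigment genes were lower, as a group and not only at Tyrp1. Of 16 melanocyte enzymes and melanosome proteins 12 were lower, all 16 lay lower in all 4 ratios, and the median was -1.86, or -1.35 with 9 lower on the housekeeping scale. Tyrp1 was at 1970 and 1870 CPM against 9590 and 9350, and Pmel, the fibril protein of melanosomes, at 1100 and 1070 against 5180 and 4960. Dct, another enzyme of the pathway, was at 1800 and 1630 against 6840 and 6900. These genes were called, so by rule the pairs cannot overlap in them. Trpm1, Oca2, Ap1s2 and the copper pump gene Atp7a were near equality, with Atp7a at 103 and 96.4 CPM against 121 and 136.

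Regulators of the lineage split. Mc1r, the melanocortin receptor, was at 50.9 and 45.5 CPM against 290 and 278, Sox10 at 241 and 233 against 1030 and 933, and Mitf at 181 and 168 against 480 and 553. Tfap2a and Erbb3 were lower too, making 5 of 12 with a median of -0.68, or 2 and -0.18 on the housekeeping scale. Axl, a receptor kinase of dedifferentiated melanoma and of phagocytes, was at 188 and 182 CPM against 57.6 and 56.6. Lef1, a factor of both melanocytes and T cells, was at 20.8 and 23.4 CPM against 0.251 and 0.156, and Fgfr1 was the third higher member. Of 12 genes tied to B16 melanoma progression 9 were lower (median -1.56). The pigment and leukocyte markers moved in opposite directions across the same pairs, and the part of the leukocyte share in the pigment differences was not tested.

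Energy metabolism was lower with little spread among members. All 35 compared genes of the respiratory complex I family, grouped by symbol, lay lower in all 4 ratios, with a median of -1.07. They ran from -1.64 (Ndufa4) to -0.72 (Ndufa6). Ndufa4 is in the family by symbol only, as its product belongs to complex IV. Ndufa4 was at 119 and 117 CPM against 361 and 371. The 2-fold rule cut through this group, calling 14 of 35, and 1 on the housekeeping scale, where the median was -0.56. Subunits of complexes III to V gave 17 lower of 38, a median of -1.04 and -0.53 on the housekeeping scale with 0 called. Atp5b was at 932 and 936 CPM against 1990 and 1950.

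Glycolysis had 9 lower and 1 higher of 18, median -1.17, or 3 lower and -0.66 on the housekeeping scale. Eno1 (enolase) was at 1980 and 2080 CPM against 7000 and 6520 and Ldha at 1140 and 1160 against 3400 and 3370. Its neuronal form Eno2 was the higher member, at 59.0 and 57.4 CPM against 14.9 and 14.7, and the glucose transporter Slc2a1 was at 184 and 221 against 161 and 152. Hypoxia response genes were near equality (2 higher of 15, median -0.03), a sign that turned with total counts (0.22), with upper-quartile factors (0.04), on the housekeeping scale (0.48) and without the MV left tumor (0.04) or CTX library (0.01).

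Protein-making and protein-degrading machinery shared a small shift that scaling could remove. Cytosolic ribosomal proteins lay lower in all 4 ratios in 76 of 80, with 2 called and a median of -0.52, which was -0.01 on the housekeeping scale. Mitochondrial ribosomal proteins had 13 lower of 78 (median -0.71, or -0.20). All 34 constitutive proteasome subunits lay lower in all 4 ratios and 0 were called (median -0.55, or -0.04). Psmb5 was at 57.1 and 63.3 CPM against 121 and 119, while Psmb8, the immunoproteasome subunit, was at 76.4 and 81.0 against 8.24 and 7.93. Housekeeping genes themselves had 4 lower of 14 (median -0.78), Ppia at 759 and 746 CPM against 2170 and 2070.

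Proliferation genes were modestly lower on the TMM scale. Of 20 G2/M genes 6 were lower (median -0.76; 0 lower on the housekeeping scale), with Plk1 at 93.0 and 91.8 CPM against 252 and 222. Of 20 G1/S genes 3 were lower, median -0.43, or 0.08 on the housekeeping scale. Tk1, the thymidine kinase of S phase, was at 49.5 and 47.2 CPM against 213 and 196, whereas Mki67 was at 482 and 445 against 344 and 388. Cholesterol synthesis had 1 lower of 19, Dhcr7 (median -0.50, or 0.01 on the housekeeping scale), and fatty acid genes 1 lower of 14 (median -0.75).

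Stromal lists changed little. Fibroblast and matrix genes had 1 higher and 2 lower of 14 (median 0.22, and -0.01 with a mean of at least 50 reads), with Col1a1 at 19.2 and 18.9 CPM against 17.5 and 16.5. The higher member was Thy1, also a T cell surface gene, at 120 and 122 against 2.76 and 2.61. Endothelial genes had 2 higher and 1 lower of 11 (median 0.42, and -0.08 with a mean of at least 50 reads): Pecam1, which leukocytes also express, was at 10.7 and 11.1 CPM against 3.27 and 3.18, and Egfl7 at 9.10 and 7.39 against 27.0 and 26.9. Platelet genes were higher in 5 of 7 (median 2.79), and the 3 platelet markers summed to 89.9, 133, 2.11 and 2.50 CPM. The 3 erythroid markers summed to 0.222, 0.186, 0.201 and 0.417 CPM.

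**Figure D4:**
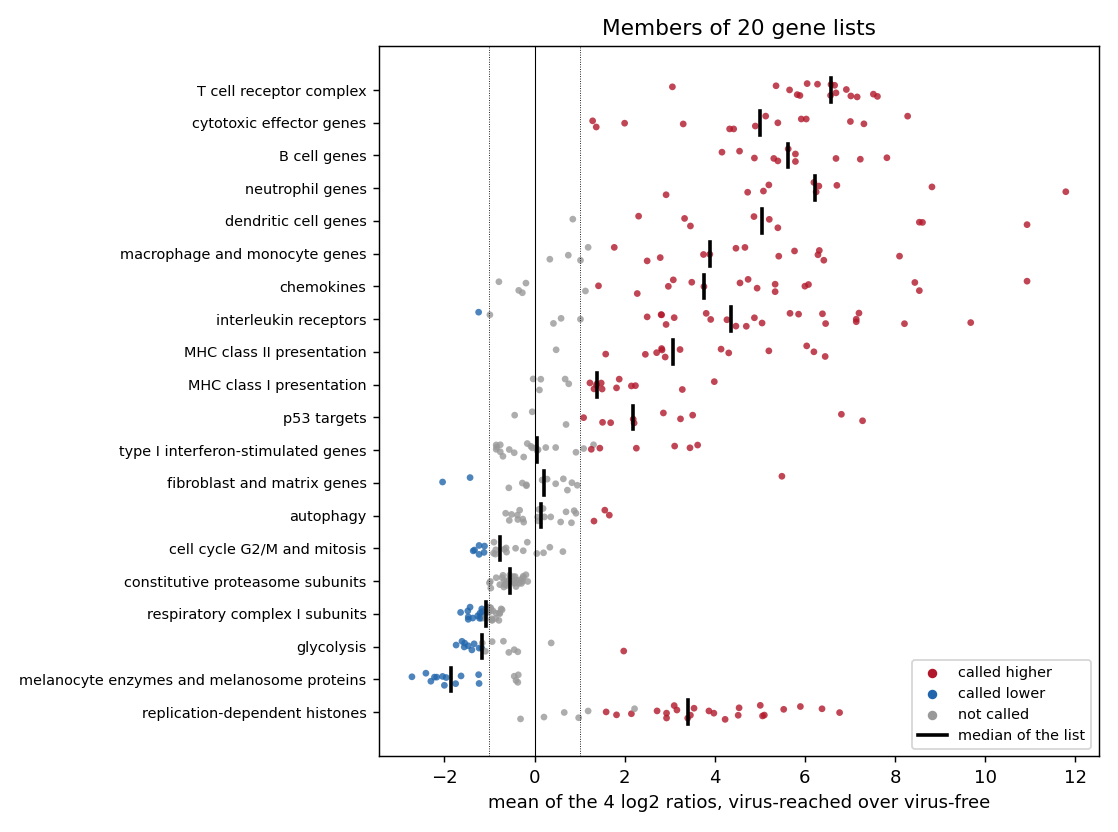
Each point is a compared gene placed by the mean of its 4 log2 ratios, virus-reached over virus-free; black bars are list medians and dotted lines mark 2-fold. Leukocyte lists lie to the right (median 6.57 for the T cell receptor complex) and melanosome genes to the left (-1.86). The 35 genes of the complex I symbol family form a narrow band at -1.07.

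Signs of library preparation followed the pairs. The list of structural RNA genes without a poly(A) tail held 1.64% and 1.62% of counts against 0.164% and 0.141%. Nearly all of it was Rn45s and Lars2, and Lars2 is a protein-coding gene, so the share is not structural RNA alone. Lars2, a mitochondrial tRNA synthetase gene whose counts can include reads that match ribosomal RNA, was at 6120 and 5840 CPM against 112 and 98.1. The ribosomal precursor Rn45s was at 8890 and 9040 CPM against 1680 and 1430. Replication-dependent histones, whose messages lack a poly(A) tail, were higher in 23 of 29 (median 3.40) and held 0.0265% and 0.0263% of counts against 0.00255% and 0.00267%. H4c6 was at 13.8 and 13.5 CPM against 0.100 and 0.156. Histone genes are near-identical copies, so reads can be split between them. Protein-coding genes with longer exons lay higher, with a median of -0.22 in the shortest of 5 equal classes and 0.12 in the longest, whereas the share called higher went the other way, 18.5% and 13.4%, and that called lower was 11.3% and 7.70%. The part of preparation in the other results was not tested. TMM factors computed without structural RNA and ribosomal protein genes gave 2131 higher and 1187 lower genes. Such factors move all genes of a library together, so these counts cannot show effects of preparation on single genes.

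Sex-linked transcripts followed the pairs as well. Xist, the RNA of the inactive X chromosome, was at 37.3 and 34.3 CPM against 2.41 and 1.62, and the Y-linked Eif2s3y was at 7.92 and 9.56 against 0 in both virus-free libraries. All 5 sex-linked genes examined were higher, with a median of 4.71.

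One chromosome stood apart among the lower genes. Among the genes with a mean of at least 1000 reads, 62 of 274 on chromosome 6 were lower, 22.6%, against 4.93% (chromosome 16) to 11.3% (chromosome 10) on the other autosomes and the X. The chromosome 6 median was -0.45 and that of all other chromosomes -0.21, a difference of -0.24. The difference was -0.23, -0.26, -0.26 and -0.24 in the 4 cross-pair ratios, and 0.01 and -0.01 within the virus-reached and the virus-free pair. In the other chromosomes it ran from -0.09 (chromosome 9) to 0.11 (chromosomes 13 and 18). This comparison of chromosomes was made after the values were seen and carries no test.

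Lower genes were found along the whole of chromosome 6, but its median shift was uneven. Cut into 10 segments of 15 Mb, the share of lower genes was 12.9% to 38.5%, each above the highest share of another chromosome, on 13 to 49 genes a segment. The difference of medians from the other chromosomes was -0.63 to -0.20 in 7 segments and 0.03, 0.05 and -0.04 in the 3 from 30 to 45, 90 to 105 and 105 to 120 Mb. The lower genes were of unlike function: Mest, Smo (the Hedgehog signal transducer, 51.4 and 50.8 CPM against 249 and 229), Asns, Mthfd2 (mitochondrial folate enzyme, 110 and 111 against 399 and 408), Tpi1, Gapdh, Ndufa4, Gars and Mitf all lie there. Several members of the lists above are thus on the same chromosome. Without the called genes the difference of chromosome 6 was -0.06, with the genes furthest from equality removed on both sides. It was -0.16 over all 686 compared genes of the chromosome with a mean of at least 10 reads.

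**Figure D5:**
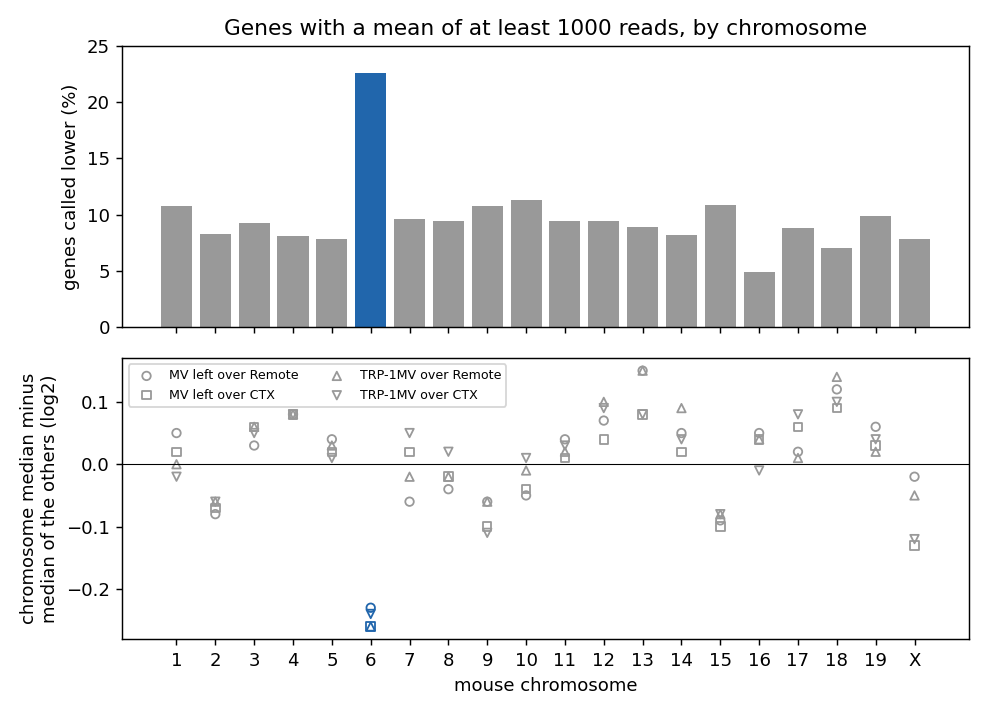
For genes with a mean of at least 1000 reads, the upper bars give the share called lower in the virus-reached pair by chromosome, and the lower points give each chromosome's median log2 ratio minus that of the other chromosomes in each of the 4 ratios. Chromosome 6 (blue) has 22.6% lower genes and differences of -0.23 to -0.26.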

How the data were processed

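Raw counts per gene symbol were deposited by the authors in 4 tables, whole numbers for 25239 symbols in each library. The submitters' processing notes name HISAT2, featureCounts and the build mm10. Not given in the sources used here are their versions, the strand setting and the handling of multi-mapping reads. Antisense and overlapping genes therefore cannot be told apart.

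Counts were scaled with TMM factors of 1.092 (MV left tumor), 1.088 (TRP-1MV), 0.913 (remote tumor) and 0.921 (CTX), with edgeR 4.0.16 in R 4.3.3. Genes with a mean of at least 10 reads over the 4 libraries were compared, which hold 99.9% of reads. A library with 0 reads was set to 3 reads for ratios. Log2 ratios have 95% exact conditional binomial (Clopper-Pearson) intervals (scipy 1.17.1, numpy 2.4.6, pandas 2.3.3, Python 3.11.15, figures in matplotlib 3.10.9), which cover counting error only. GENCODE M21 gave positions for 13144 of the 13357 genes, and promoters came from RefSeq. The calling rule was run on simulated counts that vary by counting error only. The libraries of a pair differed by more than that, so the simulation cannot give the rate of false calls in these data.

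Lists (45) and symbol families (32), the members and the calling rule were chosen with earlier results of these data known. A list is described by its counts and the median over compared members of the mean of the 4 log2 ratios, with no test. Genes named were the 15 called genes furthest from equality each way by the interval limit, leaving out unnamed models, pseudogenes and receptor variable segments, Tyrp1, defining and extreme list members, library preparation genes, and the 5 steadiest called genes each way with a mean of at least 1000 reads. Other genes named were chosen after their values were seen. Alternatives were other scalings (total counts, size factors of DESeq2 1.42.0, upper quartiles, housekeeping genes, TMM without structural RNA and ribosomal protein genes), other minimum counts, thinning, a ratio of 4, each library left out, and edgeR and DESeq2 fits of the sides. The alternatives for chromosome 6 were added after the data were seen. Results for some genes are not reported here.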

Additional observations from a re-analysis of the deposited data

How the results depend on the processing

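The counts of 2139 higher and 1179 lower genes depended on the ratio required, the scaling and the minimum count. On the housekeeping scale 3318 were higher and 375 lower (3302 and 372 beyond the within-pair difference), and with total counts 660 were lower (657 beyond). A mean of at least 50 reads left 1400 higher (1398 beyond). Requiring ratios of at least 4 left 1278 higher (1275 beyond) and 153 lower (153 beyond). With 1 library left out, 2277 to 2328 were higher and 1290 to 1421 lower. With DESeq2 size factors 2176 and 1116 were called, with upper-quartile factors 2242 and 1020, and after thinning to the smallest total 2068 and 1140.

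When the libraries of a pair were treated as replicates, edgeR's quasi-likelihood fit (adjusted p of 0.05 and 2-fold) called 2473 higher and 1533 lower, which hold all 2139 and 1179, and DESeq2's Wald test called 2459 and 1260, which share 2126 and 1142. These treat different treatments as replicates and do not show reproducibility over mice. Gapdh lost its call under total-count scaling (-1.14) and housekeeping scaling (-0.88), and Pole4 under the latter. Among lists with more than 50% of their compared members called, the integrin median changed sign (0.44, and -0.28 with a mean of at least 50 reads) and no other did under the alternatives run. The difference of chromosome 6, which a scaling factor cannot move by construction, was -0.24 to -0.26 with a library left out, and -0.30 on 22 genes with a mean of at least 10000 reads. No paired analysis was possible because there was 1 library a group and the labels give no replicate numbers. The cause of these changes was not tested, except that a higher minimum leaves fewer genes to call. Depth limits the genes at 3 reads or fewer in the virus-free pair, whose fold changes are coarse.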

Other observations

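Several families beyond those described had genes called on both sides. Over all genes compared 16.0% were higher and 8.83% lower, so counts near these shares do not set a family apart. Matrix metalloproteinases and TIMPs had 7 higher and 1 lower of 16 (median 0.63): the leukocyte enzymes Mmp8, Mmp9, Mmp12, Mmp13 and Mmp25 were higher, and the inhibitor Timp2 was lower at a mean log2 difference of -1.87. Integrins had 9 higher and 4 lower of 25 (median 0.44, and -0.28 with a mean of at least 50 reads), with the leukocyte chains Itgb2, Itgal and Itgam at 5.10, 5.26 and 6.42 and the chains Itga4 and Itga9 at -1.84 and -1.77. Collagens had 6 higher and 5 lower of 27 (median -0.18, turning to 0.07 with total counts, 0.33 on the housekeeping scale, 0.08 with no minimum count and 0.01 without CTX). The basement membrane genes Col4a1 and Col4a2 lay at -1.13 and -1.36 and the anchoring fibril gene Col7a1 at 2.57. Cathepsins had 7 higher of 13 (median 2.00, and 3 higher with a median of 0.12 for a mean of at least 50 reads): Ctss of antigen-presenting cells was at 4.31, whereas the broadly expressed Ctsb, Ctsd, Ctsl and Ctsa lay between -0.24 and 0.12. In the vacuolar ATPase, Atp6v0d2, a subunit of macrophages and osteoclasts, was higher at 4.66 and Atp6v0a4 lower at -2.38, while the family median was -0.23 (0.02 with total counts, 0.28 on the housekeeping scale). Kinesins had 2 higher and 4 lower of 32, the neuronal forms Kif5a and Kif5c at 2.49 and 2.72 and Kif6, Kif21b, Kif24 and Kif26a at -1.44, -1.71, -1.12 and -1.77, with the family median at -0.15 (0.09 with total counts, 0.35 on the housekeeping scale).

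Tubulins had 1 higher and 4 lower of 14 (median -0.55). Solute carriers had 34 higher and 30 lower of 233 (median -0.23, turning to 0.02 with total counts, 0.28 on the housekeeping scale). The Zfp zinc finger genes had 28 higher and 11 lower of 335 (median 0.14), or 79 and 1 on the housekeeping scale. The solute carrier shares were near the 16.0% and 8.83% of all genes compared, and the Zfp shares on the TMM scale were below both. Splicing factors had 2 higher of 39 (median -0.22, turning to 0.03 with total counts, 0.29 on the housekeeping scale), translation initiation factors 1 higher and 3 lower of 46 (median -0.38, 0.13 on the housekeeping scale), and chaperonin and heat shock genes 3 higher and 4 lower of 34 (median -0.49, 0.02 on the housekeeping scale). Of the 15 condensin, cohesin and SMC genes 0 were called (median -0.05, 0.20 with total counts, 0.02 with upper-quartile factors and 0.46 on the housekeeping scale). Schlafen genes had 5 higher and 1 lower of 7 (median 3.92), and granzymes 4 higher of 5 (median 5.40).

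Noncoding families did not all follow the structural RNA genes. Small nucleolar RNA genes had 2 higher and 1 lower of 20, with a median of -0.07 whose sign turned in 5 alternatives. Their host genes had 3 higher of 13 (median 0.40), nuclear long noncoding RNAs 1 higher of 6, Xist, and microRNA genes 3 higher of 18, Mir155hg, Mir22hg and Mir6236. Mir155hg, the host of a microRNA of activated lymphocytes, was at 7.10 and 8.57 CPM against 0.201 and 0.104. Skeletal muscle genes had 1 higher and 1 lower of 10 (median 0.12, but -0.55 with a mean of at least 50 reads, -0.14 with no minimum and -0.09 without the remote tumor library). Of 3 compared adipocyte genes Pparg and Lpl, both also macrophage genes, were higher, of 2 mast cell genes Hdc and Cpa3 were higher, of 2 keratinocyte genes Sfn and Perp, and of 2 erythroid genes 0.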
